A study of Homo sapiens with 11 samples.

Results

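Whether depletion of the elongation and splicing cofactor Tat-SF1 changed genes unevenly from their 5′ to their 3′ end was examined in the 1185 genes that the array covers with 40 or more probe sets. A probe set is a small group of probes for 1 exon or part of an exon. The genes were chosen by that number alone, counting probe sets with exactly 1 gene symbol and an estimate on all 11 arrays, out of 16906 genes with at least 6 such probe sets and 19530 genes with any. They held 64196 probe sets, with a median of 48 and a range of 40 to 267 per gene. Each gene's probe sets were split in order into 3 segments of about equal size, called first, middle and last. No member passed the test for a different change in its last and its first segment, and the median difference over the members was -0.0021 on the log2 scale.

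The cells were T-REx-293, a human embryonic kidney line (HEK293) with a tetracycline-controlled expression system. All groups carried a stable plasmid that encodes green fluorescent protein (GFP) and received tetracycline at 2.5 µg/mL for 72 h. The induced construct was an empty vector (2 arrays), an shRNA that targets GFP (3 arrays), shRNA A (3 arrays) or shRNA B (3 arrays), the last 2 of which target Tat-SF1. The controls are the 5 arrays of the first 2 constructs, and the knockdown arrays are the 6 with shRNA A or B. The labels call the replicates biological and do not say how the cultures were kept apart, so p-values measure the spread between these samples. The design names 12 arrays, of which replicate 3 of the empty vector was left out by the submitters after quality control.

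RNA polymerase II makes a transcript from its 5′ end to its 3′ end, and most long genes are cut and joined from many exons on the way. Elongation factors act while the polymerase moves along the gene, and splicing factors decide which exons stay in the mature RNA. Tat-SF1, encoded by HTATSF1, has been described in both roles. An exon array carries probes along the whole of a gene, so loss of one end, a changed start or end of the transcript, or RNA decay can all show as a change that differs along the gene. Probes measure total RNA at steady state and do not follow the polymerase.

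Probe set numbers rose with the genome coordinate on both strands, so genes on the minus strand were read backwards to run from 5′ to 3′. Of the members, 535 lay on the plus strand, 570 on the minus strand and 80 had no strand here and were read by number. The start regions of 3 members with a strand are shown, since the strand set the direction of order. Probe sets have no coordinates here, so order ran by number and was not counted from these starts. Knockdown and control arrays of these genes did not overlap in the change of the last minus that of the first segment. That difference was above 0 in DCAF8 and PCSK5 and below 0 in DYNC1H1. The regions hold the 80 bases before and, in capitals, the 20 bases after the annotated start in RefSeq, assembly GRCh38.p14. Each runs 5′ to 3′ on the gene's strand.
DYNC1H1, plus strand, chr14:101964493-101964592: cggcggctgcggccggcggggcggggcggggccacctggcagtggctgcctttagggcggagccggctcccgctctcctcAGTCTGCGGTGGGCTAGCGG
PCSK5, plus strand, chr9:75890593-75890692: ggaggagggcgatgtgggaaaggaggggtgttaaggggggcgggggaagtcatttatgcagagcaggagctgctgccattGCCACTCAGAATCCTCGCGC
DCAF8, minus strand, chr1:160262530-160262629: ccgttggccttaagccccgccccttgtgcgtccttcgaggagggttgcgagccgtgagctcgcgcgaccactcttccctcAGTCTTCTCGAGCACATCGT

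The values are log2 intensities. Levels of all probe sets had a median of 7.91, and dim probe sets crowd there, so a member near this level has little signal to change. The 1185 members had levels, taken as the median of their probe sets, between 7.39 and 12.0 with a median of 8.10. Of them 260 lay over 8.5 and 488 under 8. Correlations between arrays were 0.941 to 0.962. Of 10 markers of HEK293 cells 4 lay over 8.5, with VIM highest at 9.99, and 4 lay under 8. The summed level of the 10 was 84.7 to 85.8 in the controls and 84.5 to 85.5 in the knockdown arrays. The measured markers of blood cells, hepatocytes, fibroblasts, endothelium and muscle all lay under 8. Of the 6 carcinoma markers, EPCAM lay highest at 8.68 and 4 lay under 8.

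HTATSF1 has 17 probe sets and is no member. Its gene value (the median of its brighter probe sets) was 8.54 and 8.32 on the empty vector arrays, 8.53, 8.63 and 8.49 on the GFP shRNA arrays, 8.29, 8.21 and 8.22 with shRNA A and 8.11, 8.19 and 8.21 with shRNA B. All 6 knockdown arrays lay below all 5 controls (exact two-sided permutation p = 0.00216, the smallest that the 462 splits allow). Its last segment differed from its first in change by -0.13 ± 0.045 (SE), which did not pass over all genes (limma, adjusted p = 0.381). Taken alone, without adjustment, that difference had an exact two-sided permutation p of 0.026.

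Along the members, levels were lowest at the 2 ends. Each gene's probe sets were divided into 20 bins from 5′ to 3′, and the level of each bin was set against the gene's own median. Over the 1105 members with a strand, the median was -0.13 in the first of the 20 bins, between -0.00985 and 0.0261 in bins 2 to 19 and -0.0408 in the last. In the 245 of these with a level over 8.5 the dip was deeper, at -0.523 in the first bin and -0.38 in the last, and bins 3 to 13 lay above the gene median by up to 0.172. The last segment was lower than the first in 608 of the 1105 members and in 135 of the 245 bright ones, with median differences in level of -0.00856 and -0.0796. On single arrays that median difference in the bright members ran from -0.0938 to -0.0325 in the controls and from -0.109 to -0.0559 in the knockdown arrays, so the groups overlapped.

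**Figure D1:**
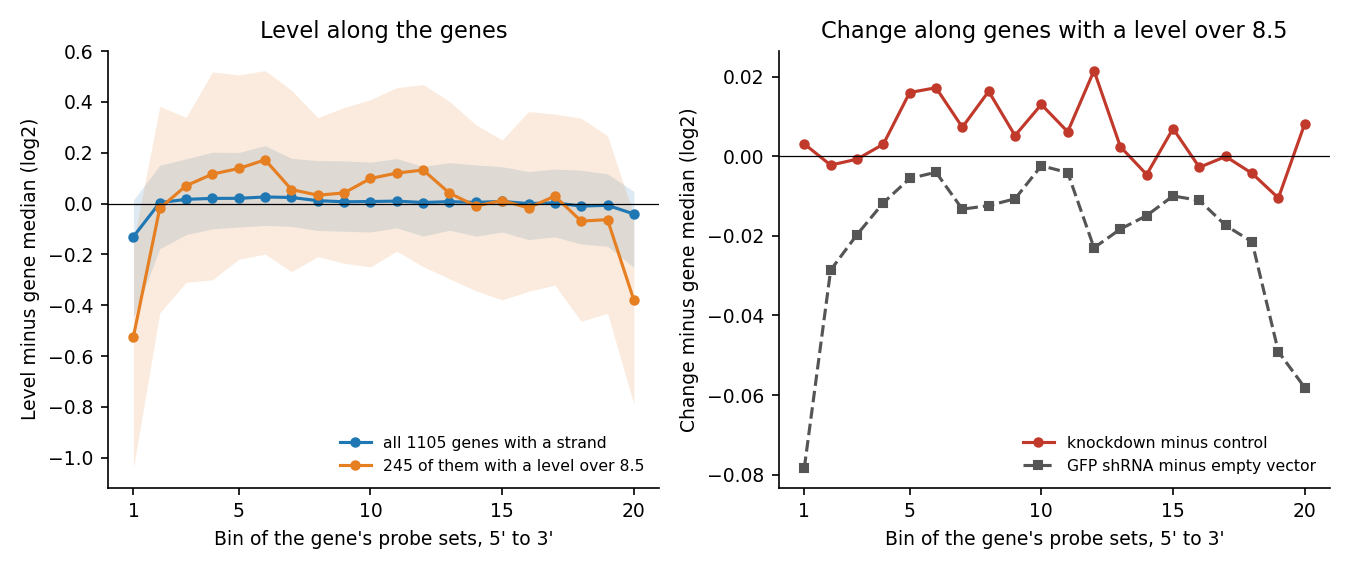
Level (left) and change (right) on the log2 scale against position in 20 bins from 5′ to 3′, each relative to the gene's median; lines join medians over genes, shading on the left spans the quartiles and the right panel holds the genes with a level over 8.5. In the bright members the level dips to -0.523 at the first and -0.38 at the last bin, and GFP shRNA minus empty vector is lowest at the same bins, at -0.0783 and -0.0581.

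The main comparison asked whether a segment of a gene moved by more or less than the whole gene. Each probe set was centred on its mean over the 11 arrays. The value of a segment on an array is the median of its centred probe sets minus the median of all the gene's centred probe sets, and the last minus first difference is taken between the outer segments. Over the 1185 members, the knockdown change of the first segment relative to the gene had a median of 0.000718, that of the middle segment 3e-04 and that of the last segment -0.00162. The last minus first difference had quartiles of -0.0207 and 0.0136 and ran from -0.202 to 0.244, with 550 members above 0 and 635 below. The 15721 genes with 6 to 39 probe sets had a median of -0.00128 and wider quartiles of -0.0298 and 0.0272. A difference within 0.05 of 0 was found in 86.2% of the members and 69.3% of the other genes, and the median standard error was 0.0218 in the members and 0.0361 in the others. At the edge of the rule, the 93 genes with 40 probe sets had a median of -0.004 and the 102 genes with 39 had one of 0.000782.

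**Figure D2:**
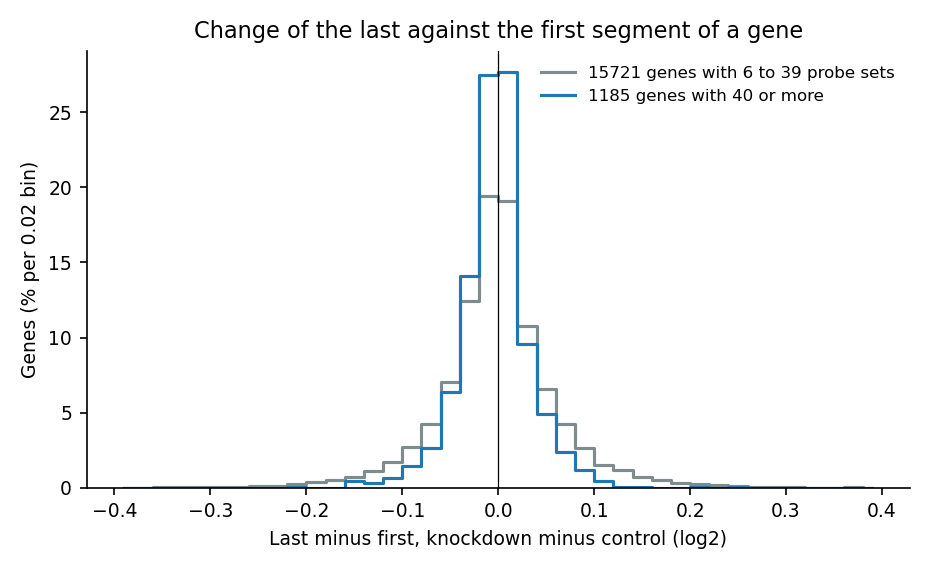
Share of genes in bins of 0.02 against the last minus first difference between knockdown and control arrays on the log2 scale. The 1185 members (blue) are centred at -0.0021 and are narrower than the 15721 genes with fewer probe sets (grey), whose median is -0.00128; values beyond 0.4 are not drawn.

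None of the 1185 members passed the limma test at an adjusted p under 0.05, and 111 (9.37%) had an unadjusted p under 0.05. Over all 16906 genes, 4 passed (0.0237%) and 9.64% had an unadjusted p under 0.05. None of the 4 is a member. DNAJA2, a cochaperone (0.28), MGMT, a DNA repair enzyme (0.26), and TPST1, a sulfotransferase (0.22), rose at the 3′ side relative to the 5′ side, and MRFAP1 (-0.25) fell. The 6 knockdown arrays did not overlap the 5 controls in 13 members (1.1%) and in 1.1% of all genes. The share of members was thus that of the background. Of the 13 members, 3 were higher and 10 lower in the last segment, and over all genes 91 were higher and 95 lower. The 10 include VPS53 and RGS22, which have no strand here and were read by number. Taking the segments one by one, none of the members' 3555 passed (353, or 9.93%, had an unadjusted p under 0.05 in limma). Over the 50718 segments of all genes 1 passed (0.00197%).

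The members named next are those with the largest differences among the 13 whose groups did not overlap. They are given as values, since none passed the test. DYNC1H1 encodes the heavy chain of cytoplasmic dynein 1, the motor that carries cargo towards the centre of the cell, and had 92 probe sets. Its last minus first difference was 0.116 and 0.0215 on the empty vector arrays, 0.00941, 0.0634 and 0.0573 with GFP shRNA, -0.0441, -0.0382 and -0.0511 with shRNA A and -0.0437, -0.107 and -0.0555 with shRNA B. Every knockdown array was below 0 and every control above it. The change was -0.11 ± 0.019 (SE), with the smallest adjusted p of any member (limma, 0.0959). Of the 31 probe sets in its first segment 26 were higher in the knockdown arrays, by a median of 0.0908, and in its last segment the median change was -0.00879.

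NUP98, which encodes nucleoporins of the nuclear pore, had the same direction. Its difference was 0.125 and 0.0916 with the empty vector, 0.0758, 0.0467 and 0.0212 with GFP shRNA, 0.00499, -0.0637 and -0.022 with shRNA A and -0.0194, -0.103 and -0.182 with shRNA B. The lowest control and the highest knockdown array were close, and the change was -0.136 ± 0.0324 (adjusted p = 0.219). The median change of its probe sets was 0.0576 in the first segment, -0.00934 in the middle and -0.0675 in the last. AKT1, a kinase of growth factor signalling, had the lowest value of the 13, at -0.145 ± 0.046 (adjusted p = 0.34). The levels of its first, middle and last segments were 7.9, 7.94 and 9.24. The first and middle ones thus lay near the median of all probe sets. Single probe sets ran from 5.92 to 10.2 in the first segment and from 4.13 to 10.3 in the middle. The median change of the probe sets was -0.0233 in the first segment, -0.146 in the middle and -0.193 in the last. The part of the level in the difference of AKT1 was not tested. Its controls were 0.0205, 0.0839, 0.29, -0.00512 and 0.0473, of which GFP shRNA replicate 1 stood highest, and its 6 knockdown arrays ran from -0.119 to -0.0167.

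CARMIL2, an actin regulator with a level of 7.79, had a difference of -0.0814 ± 0.0178 (adjusted p = 0.184), with controls between -0.00994 and 0.076 and knockdown arrays between -0.0793 and -0.0195. VPS53, a subunit of a vesicle tethering complex, has no strand here, and in order of number had -0.077 ± 0.0178 (adjusted p = 0.214), with controls from 0.0107 to 0.0805 and knockdown arrays from -0.0625 to 0.01. The remaining members without overlap were also lower in the last segment: FN1, the matrix protein fibronectin (-0.0747), PTPN13, a tyrosine phosphatase (-0.0634), SUPT20H, a subunit of the SAGA coactivator (-0.0531), the checkpoint kinase ATR (-0.0382) and RGS22 (-0.00956, by number). Their adjusted p lay between 0.203 and 0.789.

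In the other direction, DCAF8, a substrate receptor of cullin ubiquitin ligases, had a last minus first difference of -0.0357 and -0.0402 with the empty vector and -0.0483, -0.0408 and -0.105 with GFP shRNA. It had 0.00911, 0.0702 and 0.00561 with shRNA A and 0.0207, 0.0455 and 0.00135 with shRNA B. All controls were below 0 and all knockdown arrays above it, a change of 0.0794 ± 0.0172 (adjusted p = 0.184). Its probe sets lie in 2 separate runs of numbers. In PCSK5, a proprotein convertase with a level of 7.94, the controls ran from -0.138 to 0.0328 and the knockdown arrays from 0.035 to 0.0605, a change of 0.0765 ± 0.0265 (adjusted p = 0.392). In TRIP12, a HECT ubiquitin ligase, the controls ran from -0.0479 to -0.0116 and the knockdown arrays from -0.00443 to 0.118, a change of 0.0708 ± 0.0203 (adjusted p = 0.293).

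**Figure D3:**
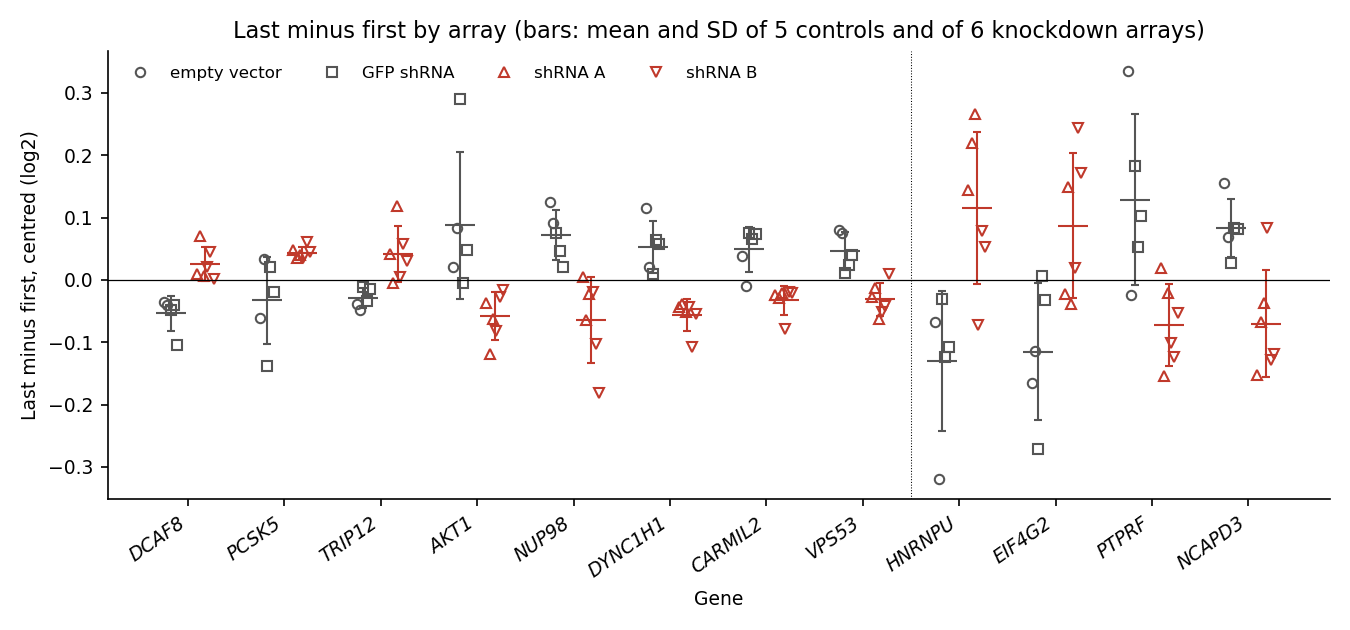
Last minus first difference on the log2 scale, centred per probe set, on each array for 8 members whose groups do not overlap (left of the dotted line) and 4 with larger differences whose groups overlap; bars are the mean and SD of 5 controls and of 6 knockdown arrays. In DYNC1H1 every control lies above 0 and every knockdown array below, between -0.107 and -0.0382.

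The members with the largest differences of all had groups that overlapped, and were picked out after their values were seen. HNRNPU, an abundant nuclear RNA-binding protein, had -0.0672 and -0.319 with the empty vector, -0.0311, -0.123 and -0.108 with GFP shRNA, 0.145, 0.219 and 0.266 with shRNA A and -0.0725, 0.0784 and 0.0521 with shRNA B. The 3 shRNA A arrays were the highest and shRNA B replicate 1 lay among the controls. The change was 0.244 ± 0.0641 (adjusted p = 0.263), being 0.34 under shRNA A and 0.149 under shRNA B. Of the 14 probe sets in its first segment 12 were lower in the knockdown arrays, by a median of -0.138, and 12 of 13 in its last segment were higher, by a median of 0.123. EIF4G2, a translation initiation factor, had 0.203 ± 0.062 (adjusted p = 0.329), and its median change went from -0.0312 in the first segment, where the median level was 7.95, to 0.169 in the last, where it was 10.9. The receptor phosphatase PTPRF had -0.202 ± 0.0565 (adjusted p = 0.288), and all 18 probe sets of its last segment were lower, by a median of -0.21. NCAPD3, a condensin subunit, had -0.154 ± 0.0393 (adjusted p = 0.257), and shRNA B replicate 1, at 0.0829, lay among the controls.

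**Figure D4:**
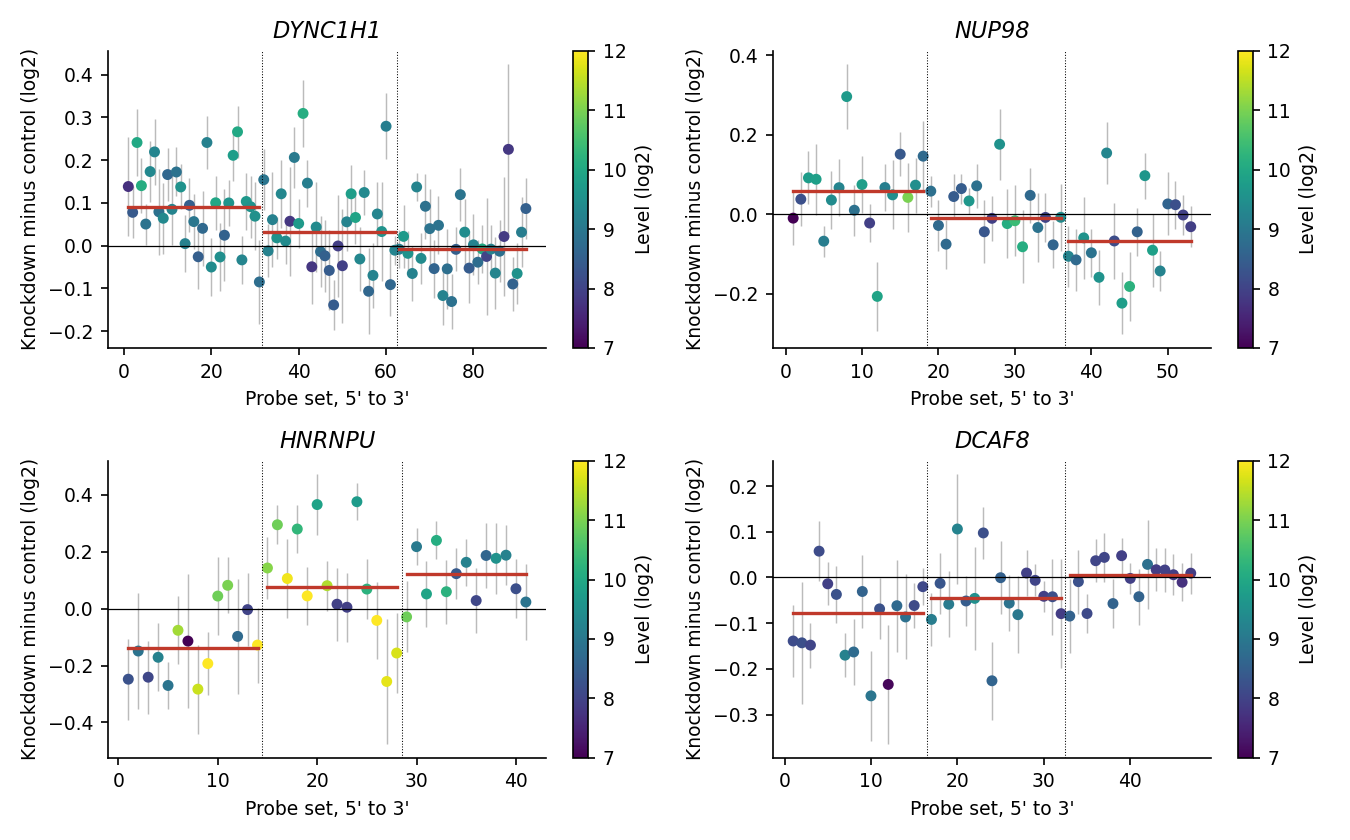
Change of each probe set between knockdown and control arrays on the log2 scale, with its standard error relative to the gene, against its place from 5′ to 3′ in 4 members; colour is the level, dotted lines part the segments and red lines are the medians of the segments. The medians fall from 0.0908 to -0.00879 in DYNC1H1 and from 0.0576 to -0.0675 in NUP98, and rise from -0.138 to 0.123 in HNRNPU and from -0.0776 to 0.00598 in DCAF8.

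The 5 members with the most probe sets differed little along their length. NPIP (267 probe sets in 8 runs of numbers) and GOLGA8IP (183 in 7 runs) belong to families of near-identical copies on different loci, so their order is not that of 1 gene and their probes may be shared between copies. Their differences were 0.0143 ± 0.0135 and -0.00703 ± 0.00692. TTN, the giant spring protein of muscle, had 165 probe sets at a level of 7.89, about the median of the table, and its difference was 0.00189 ± 0.00522. SSPOP, a pseudogene of a secreted brain protein, had 0.00756 ± 0.0176. UBR4, a ubiquitin ligase with 143 probe sets at a level of 8.92, had -0.0522 ± 0.0167 (limma, adjusted p = 0.346). Its first segment was higher than the gene by 0.0334 ± 0.00752 (adjusted p = 0.305), with the groups not overlapping, and the median change of its probe sets was 0.0961 in the first segment, 0.0573 in the middle and 0.0202 in the last.

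Of single segments, the 3 with the smallest p were middle ones, that of NPIP (0.0418 ± 0.00687, limma, adjusted p = 0.189) among them. In SMARCA4, the ATPase of a chromatin remodelling complex, the middle segment was higher than the gene by 0.0945 ± 0.0153 (adjusted p = 0.189), and in the kinase WNK1 by 0.0781 ± 0.0153 (adjusted p = 0.267). In EIF4B, another initiation factor, the middle segment was lower by -0.084 ± 0.0187, and in the polycystic kidney gene PKD1 by -0.0762 ± 0.016 (adjusted p = 0.305 in both). Without empty vector replicate 1 the middle segment of NPIP passed (0.0403, adjusted p = 0.04). These were named after their values were seen.

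Bright members were examined apart because dim ones have little room to change. Among the 260 over 8.5, 41 (15.8%) had an unadjusted p under 0.05, against 16.6% of the 2888 other genes over that level, and 5 had groups that did not overlap (1.92% against 2.04%). The last segment was lower than the gene in 164 of the 260, with a median of -0.0101, and the middle segment was higher in 155, with a median of 0.00628. In the 2888 others the last segment had a median of 0.00675 and the middle one of -0.00119. The comparison of the 2 control constructs gave the same 260 members a median of -0.00653 in the last segment and 0.0117 in the middle. It uses the control arrays that the knockdown comparison also uses. In the 488 members under 8, the 3 segments had medians between -0.000147 and 0.000429.

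By construct, the median over the members of the last minus first difference was between -0.0014 and 0.00398 on the 2 empty vector arrays, between -0.00153 and 0.00197 on the 3 GFP shRNA arrays and between -0.00158 and 0.0014 with shRNA A. With shRNA B it was between -0.00912 and 0.00474. The spread among the 3 shRNA B arrays held the values of all other arrays. The control arrays averaged 0.000695 ± 0.00234 (SD, n = 5) and the knockdown arrays -0.00075 ± 0.00463 (SD, n = 6), a difference smaller than either spread.

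For shRNA A against the controls, none of the members passed in limma (99 with an unadjusted p under 0.05), while 3 of all genes did (0.0177%). For shRNA B none of the members or of all genes passed (0%; 93 members with an unadjusted p under 0.05). Their medians over the members were -0.0019 and -0.002, and both comparisons share the 5 controls. shRNA B against shRNA A, which shares no array between its sides, gave 0 calls among all genes (0%; 58 members with an unadjusted p under 0.05 in limma), with a median of -0.000605. GFP shRNA against the empty vector gave 0 members (53 with an unadjusted p under 0.05 in limma) and 1 gene of all, the homeobox gene NKX1-1 (0.00592%). Its median over the members was -0.00108, with quartiles of -0.0237 and 0.0191, wider than those of knockdown against control. At the ends of the bright members this comparison of controls was lowest, at -0.0783 in the first of the 20 bins and -0.0581 in the last, where levels were lowest too. As whole genes these 245 members differed by a median of 0.0843, GFP shRNA over empty vector. All 3 values leaned on the 2 empty vector arrays: without replicate 2 they were -0.0182, -0.0278 and 0.0391, and without replicate 1 they were -0.159, -0.0932 and 0.135, alternatives chosen after seeing the data. The part of the level in that pattern was not tested. For the knockdown those bins had 0.00308 and 0.00814.

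Gene lists group 315 of the members into 21 families and processes, none of whose members passed in limma. Of the 315, 38 (12.1%) had an unadjusted p under 0.05, against 9.64% of all genes, and 5 (1.59%) had groups that did not overlap, against 1.1%. For the counts by list that follow, 53.6% of all members and 57.3% of the bright ones had a last minus first difference below 0, which is what lower at the 3′ side means here. Among 10 members of translation and protein synthesis, 7 were lower at the 3′ side and the median was -0.0409, against -0.0021 for all members. GCN1, which activates a stress kinase on stalled ribosomes, had -0.144, and EIF4G2 went the other way. Of 9 nuclear pore and transport genes 7 were lower, with a median of -0.0331, led by NUP98 and the pore protein NUP214 (-0.122). Of 11 splicing factors and RNA helicases 8 were lower, with a median of -0.0291. Among them were PRPF8, the core protein of the spliceosome (-0.12 ± 0.0398, adjusted p = 0.365), and the splicing scaffold SRRM2 (-0.0715). The probe sets of PRPF8 lie in 2 runs of numbers, and its segments had levels of 11.3, 10.5 and 7.92. Its last segment was thus dim, and the part of the level in the difference of PRPF8 was not tested. Of 17 genes of mitosis and the centrosome 14 were lower, with a median of -0.0175, led by NCAPD3 and the kinesin KIF14 (-0.0817). Of 9 PI3K-related kinases and cofactors 5 were lower, with TRRAP, a scaffold of acetyltransferase complexes, at -0.0847 and the mTOR partner RICTOR at 0.045.

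RNA polymerases, elongation factors and Mediator were split 5 and 5 among 10 members, with a median of -0.00265. POLR1A, the large subunit of RNA polymerase I, had -0.0641 and the elongation factor SUPT6H 0.0525. DNA replication and repair had 8 of 14 lower (median -0.018), with the Fanconi gene FANCA at -0.0662 and MCM3AP at -0.0618. Chromatin remodellers and histone modifiers had 17 of 28 lower (median -0.00719), with ARID1A at 0.0861 and BPTF, read by number, at 0.0767. HECT and related ubiquitin ligases had 8 of 14 lower (median -0.00552), with TRIP12 above and the deubiquitinase USP9X at 0.0555. Myosins outside muscle had 10 of 15 lower (median -0.0201), with MYH10 at -0.0863 and MYO18A at -0.0636. DOCK and other exchange factors had 8 of 15 lower (median -0.000353), with TRIO at 0.107 and NF1, an inhibitor of Ras, at 0.0473. The 5 lists with the highest median levels, from 8.85 to 9.42, all had medians below 0, and the 260 bright members as a whole had -0.00867.

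The 10 lists described next, with median levels from 7.86 to 8.19, had medians between -0.0089 and 0.00794. The 12 dynein heavy chains had a median of 0.00685 at a median level of 7.89, and DYNC1H1 at 9.14 stood apart from the axonemal chains, of which DNAH17 had the largest difference (0.0218). The 25 collagens had 0.00363 (COL2A1 -0.0926, COL4A1 0.0465), the 16 calcium channels -0.00836 (CACNA1B -0.0299, CACNA1F -0.0255) and the 6 sodium and TRPM channels 0.00409 (SCN3A 0.017, TRPM6 -0.012). The 19 ABC transporters had 0.0029 (ABCA7 0.0573, ABCC4 0.0566) and the 17 muscle genes 0.00569 (MYH6 0.0325, MYOM2, by number, 0.0301). The 21 cytoskeletal linkers had 0.00716 (the actin crosslinker FLNA 0.0837, the integrin linker TLN1 0.0637), the 19 laminins and matrix proteins -0.0089 (FBN2 0.0909, FN1 -0.0747) and the 16 genes of VPS13 and vesicle traffic 0.00158 (LRBA -0.0461, VPS13D -0.0437). The 15 LDL receptor relatives, cadherins and adhesion receptors had 0.00794, with PTPRF lowest of all members and NOTCH3 at 0.117.

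**Figure D5:**
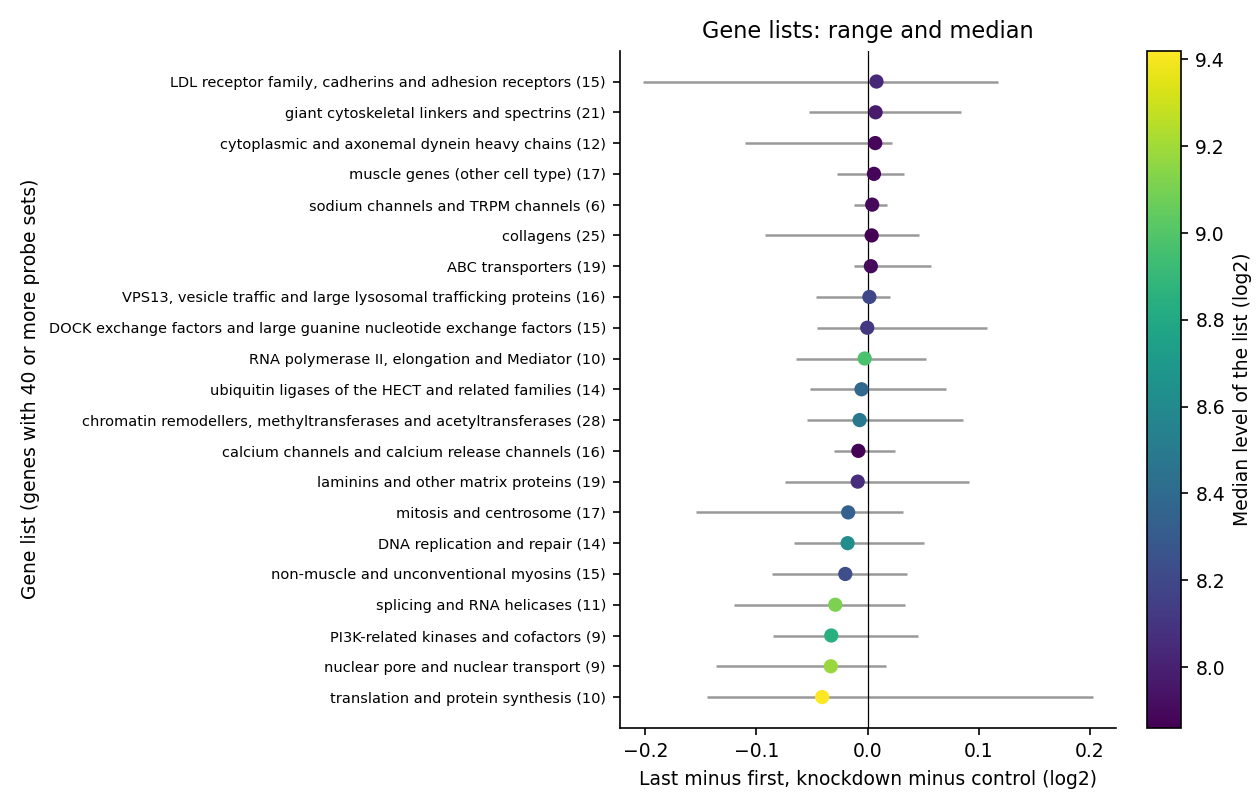
Last minus first difference between knockdown and control arrays on the log2 scale for 21 gene lists, with the number of members in brackets; lines span the lowest to highest member, points are medians and colour is the median level. Medians lie between -0.0409 (translation, median level 9.42) and 0.00794 (adhesion receptors).

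Single probe sets were then set against their own gene. Of the members' 64196 probe sets 1 passed, and 12 of 338522 over all genes did (0.00354%, limma). It lies in SKIC3, a subunit of the SKI complex, which works with the exosome in the decay of cytoplasmic RNA, at place 30 of 48 in the middle segment. Its level was 10.0 and 9.86 with the empty vector, 10.0, 10.0 and 10.2 with GFP shRNA, 10.3, 10.3 and 10.6 with shRNA A and 10.3, 10.5 and 10.4 with shRNA B. The gene's median lay between 8.92 and 9.16 in the controls and between 8.84 and 9.21 in the knockdown arrays. All 6 knockdown arrays lay above all 5 controls. Relative to the gene the probe set rose by 0.408 ± 0.0417 (adjusted p = 0.0353). The call rested on every array but shRNA A replicate 1: leaving out any other of the 11 gave changes of 0.397 to 0.418 and adjusted p of 0.0688 to 0.166, and leaving out that one gave 0.438 and 0.0122. The share of the members' probe sets with an unadjusted p under 0.05 was 9.82% in the first segment, 9.98% in the middle and 9.27% in the last, and in the other genes 10.1%, 10.4% and 9.75%. The second smallest p among the members belonged to a probe set in the middle segment of NOTCH3 (0.557 ± 0.0672, adjusted p = 0.0734).

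As whole genes, none of the members passed in limma (115, or 9.7%, had an unadjusted p under 0.05), while 33 of 14520 genes did (0.227%) and 15.2% had an unadjusted p under 0.05. The 33 became 67 without empty vector replicate 2, when SBF1 among the members passed, and between 2 (without GFP shRNA replicate 3) and 11 (without GFP shRNA replicate 2) when any other array was left out. Groups did not overlap in 16 members (1.35%, against 2.23% of all genes), 4 of them higher and 12 lower in the knockdown arrays. RPS2, a ribosomal protein of the small subunit whose 45 probe sets lie in 13 runs of numbers and may include copies elsewhere, had -0.316 ± 0.0629 (12.0 ± 0.0591 in 5 controls, 11.7 ± 0.0636 in 6 knockdown arrays, SD, adjusted p = 0.0517), and CPSF1, a subunit of the 3′ end cleavage complex, had -0.261 ± 0.0528 (adjusted p = 0.0517). SMARCA4 had -0.206, the exosome nuclease EXOSC10 -0.205 and the NAD kinase NADK -0.185. The collagen genes COL16A1 (0.163) and COL7A1 (0.162), the cardiac myosin MYH7 (0.0467) and the calcium release channel RYR1 (0.0233) were higher. Of the 16, AKT1 alone was also among the 13 members whose last minus first difference did not overlap. The number of probe sets went with the gene's change by a rank correlation of 0.147 across the 1185 members and with the last minus first difference by 0.0232. Genes are not independent replicates.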

How the data were processed

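Exon-level log2 values were deposited for 1399022 probe sets and 11 arrays. Total RNA was column purified, treated with DNase and labelled along whole transcripts, per the labels' protocols. The sources used here do not give the software, normalization or build behind the values that the authors deposited, and dim values crowd near 7.91, so changes of dim genes may be compressed. Between 13190 and 15431 probe sets per array lacked an estimate and were left out. A table of gene symbols gave 1 symbol to 355799 probe sets. Of 19530 symbols 16447 were current in RefSeq, 2875 were updated and 208 kept. Strand came from RefSeq starts for 963 members and from neighbours in number for 142. Values as deposited were fitted with limma 3.58.1 in R 4.3.3 (lmFit, eBayes, trend on log2 of the number of probe sets) over all genes with 6 or more probe sets, and p-values were adjusted by Benjamini-Hochberg over them. Gene values are medians of 4 or more probe sets at or above the median of the table. A gene or probe set passed at an adjusted p under 0.05. The fits were also run on simulated data with noise drawn separately for each probe set. Noise shared along a gene was not simulated, so those data do not show how the fits handle it. The members, lists and alternatives were chosen with earlier results of these data known. Genes were named by a rule: HTATSF1, the 5 members with most probe sets, members that passed or, where under 5 did, the 5 largest per direction whose groups do not overlap, probe sets that passed, and per list 2 members with the largest difference. The number of arrays limits the precision.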

Additional observations from a re-analysis of the deposited data

Results flagged for a closer look

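Among the last minus first differences of the named members and the medians over members, 36 groups of 5 or 6 arrays were searched for an array far from the rest, and 3 had one. Chance gives about 1 in 20 such groups. For DCAF8, GFP shRNA replicate 3 had -0.105, with the other controls between -0.0483 and -0.0357. For DYNC1H1, shRNA B replicate 2 had -0.107, with the other knockdown arrays between -0.0555 and -0.0382. For CARMIL2, shRNA B replicate 1 had -0.0793, with the others between -0.0297 and -0.0195. In all 3 genes that array lay farther from the opposite group than the others. These genes were named because their groups do not overlap, and that choice favours this direction.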

How the results depend on the processing

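Of 28 other settings (other normalization, trend, order, splits and filters, arrays left out), 27 refitted the last minus first difference. None of the members passed in limma in any of the 5 contrasts, where fitted. Contrasts with shRNA B could not be fitted on arrays that lack a suffix in their names, since none of these carry shRNA B. The 4 genes that passed over all became 0 to 5 with 1 array left out. The median first segment was 0.00218 with means in place of medians (0.000323 to 0.002 with 1 array left out), the median last segment -0.0018 to -0.000312 with 1 array left out, the median middle segment -0.000538 to 0.00113, and the median last minus first difference -0.00408 to -0.00108 and, as a slope, -0.00587. With 1 array left out, 0 to 1 segments, 0 to 1 gene values and 0 to 1 probe sets of members passed. Gene values gave 1 call with all probe sets (RPS2) and 5 with means (COL11A2, CPSF1, KNDC1, NADK and PLCH2), and the 33 genes called over all became 140 with means and 0 when a suffix in the array names was a block. Probe sets gave 2 calls after quantile normalization (MARS and SKIC3), 0 among brighter probe sets and 0 with the suffix block, where SKIC3 had 0.354 (adjusted p = 0.385). That suffix marks 4 knockdown arrays and no control. With it as a block, knockdown against control rests on shRNA A replicates 1 and 2 against the 5 controls. The suffix and the smaller number of arrays thus cannot be told apart in the lost calls. The part of the suffix in any difference was not tested beyond these fits, and among arrays without it POLRMT gave 1 call. The replicate block gave 0 probe sets (SKIC3 adjusted p = 0.0925) and 10 genes. For whole genes, same-numbered arrays correlated by -0.147 to 0.267 (median 0.0412), over 0.1 in 5 of 15 pairs. Arrays of different numbers correlated by -0.267 to 0.218 (median -0.0212), over 0.1 in 6 of 30 pairs. These are not the correlations of levels given above (0.941 to 0.962). For the last minus first difference, the ranges were -0.147 to 0.193 for the same number and -0.21 to 0.158 for different numbers. Whether same-numbered samples share more than a number was not tested. Of 1827 values of named genes 85 moved by over 1 SD and none passed. Order by number turns minus-strand genes by construction. The cause of the other shifts was not tested. Dim probe sets limit what could be seen.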

Other observations

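In POLRMT, the mitochondrial RNA polymerase, the probe set at place 31 of 46 was singled out after its values were seen. It lies in the second of 2 runs of numbers, so its link to the gene rests on the symbol alone. Its level was 6.1 and 5.88 with the empty vector, 6.2, 6.07 and 5.81 with GFP shRNA, 3.55, 3.5 and 6.22 with shRNA A and 4.81, 4.77 and 6.68 with shRNA B. Replicates 1 and 2 of both shRNAs were below every control, and replicate 3 of both was above every control. The median of the gene lay between 8.55 and 9.01 on all 11 arrays.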
